A study of Mus musculus with 2 samples.

Results

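Semaphorins are secreted or membrane-bound guidance proteins, and plexins and neuropilins are the receptors that read them. The 31 genes of these families were taken as listed symbols, and a probe set counted as theirs where the platform annotation mapped it to that symbol alone. They had 78 probe sets of 45037 non-control probe sets, and 18193 genes had a probe set in all. Primary mouse osteoblasts were at day 10 of differentiation with beta-glycerophosphate (10 mM) and ascorbic acid (50 µg/ml), and fetal calf serum is listed at 10%. They were deprived of serum overnight. The first culture then received medium conditioned by PC-3 cells and the other medium conditioned by MDA-PCa2b cells, for 6 h each. Both lines were derived from bone metastases of human prostate cancer, of which PC-3 is known for bone-destroying and MDA-PCa2b for bone-forming lesions. Each culture's RNA was read on 1 Affymetrix mouse array. The labels name no mouse strain, age or donor number, and no concentration of the conditioned media. Untreated osteoblasts were not analysed here, and all differences are given as PC-3 medium relative to the other medium.

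Class 3 semaphorins are secreted and mostly bind a neuropilin, which carries the ligand to a signalling A-type plexin. Sema3e is the known exception that binds plexin D1 directly. Membrane semaphorins bind plexins without a neuropilin. Plexins then act through their cytoplasmic GTPase-activating domain and small GTPases on the cytoskeleton and on adhesion. In mouse bone, osteoblast-derived Sema3a is known to restrain osteoclast formation and favour osteoblasts, and Sema4d from osteoclasts is known to restrain bone formation through Plxnb1.

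Members of the families differed between the media in both directions. Sema3d, Sema3a and Nrp2 were 3.11-fold, 2.09-fold and 2.08-fold lower with PC-3 medium. Sema3e, Sema4f, Sema6d, Sema4b, Sema4c and Plxnd1 were 1.35-fold to 1.62-fold higher. Plxnb1, Sema3b and Plxnc1 were 1.46-fold, 1.35-fold and 1.30-fold lower. No measured plexin gene reached 1.5-fold, but they are too few for this to set them apart. A signal was called measured where it exceeded a floor, the 50th percentile of its array (57.7 with PC-3 medium and 56.7 with MDA-PCa2b medium), on both arrays, and the brightest probe set stood for its gene. By this rule 23 of the 31 members were measured, 3 exceeded the floor only on the PC-3 medium array, 1 only on the MDA-PCa2b medium array, and 4 did so on no array. Of the 23, 3 (13.0%) were at least 2-fold lower, against 1.68% of all 10649 measured genes, and 0 were at least 2-fold higher, against 1.90%. At 1.5-fold, 3 (13.0%) were lower against 6.23% of all genes, and 2 (8.70%) were higher against 5.18%. The median log2 ratio of the 23 members was -0.05, beside -0.04 over all measured genes, and their SD was 0.58 beside 0.44. With 1 array per medium no test between the media was possible, and these counts have no replicate check.

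**Figure D1:**
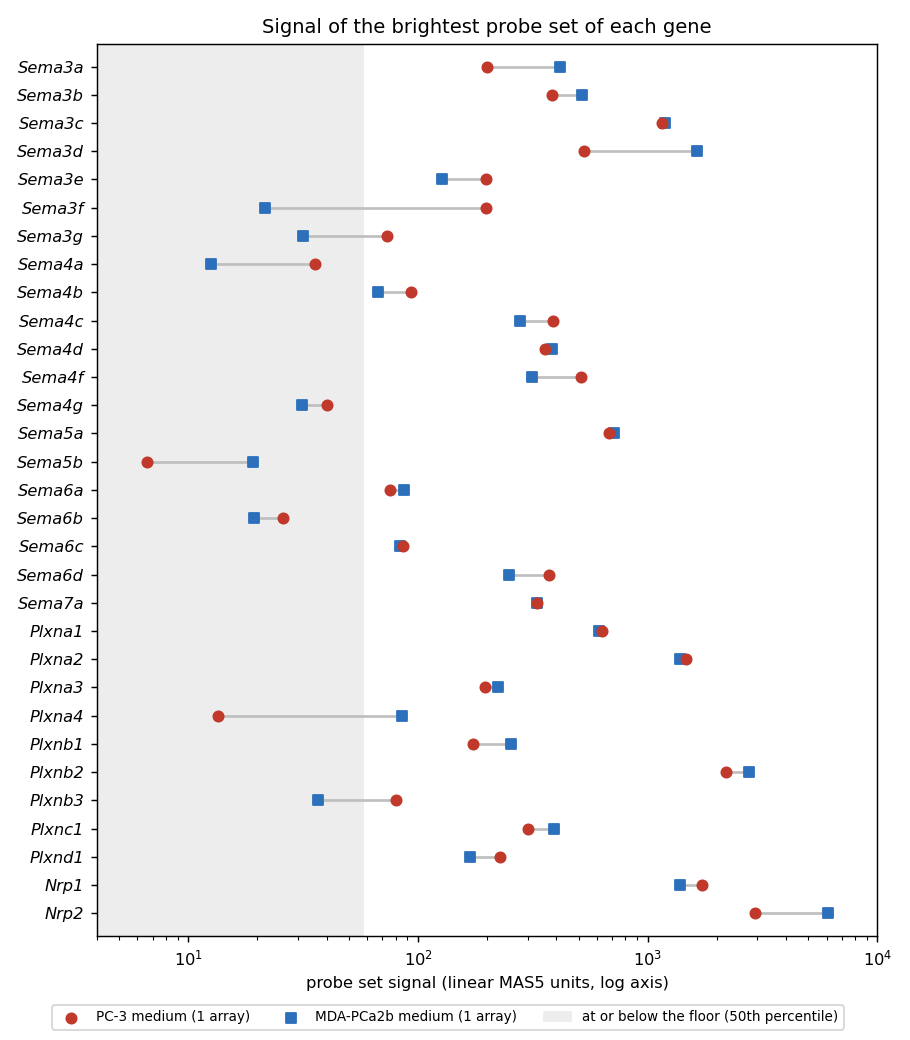
Signal of the brightest probe set of each of the 31 genes, on a log axis, with PC-3 medium (circles) and MDA-PCa2b medium (squares), 1 array each, joined by a line; grey marks signals at or below the floor. Sema3d (529 against 1644) and Nrp2 (2931 against 6103) show wide gaps well above the floor, whereas the wide gaps of Sema3f, Plxna4 and Plxnb3 cross it.

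The error could be gauged only in part, from how far probe sets of a gene disagreed. Across 4924 genes with at least 2 such probe sets, log2 ratios deviated from their gene's mean with an SD of 0.24. Within the families that SD was 0.13, over 14 members with several measured probe sets, and in 13 of the 14 all measured probe sets lay on the same side of 0. The exception was Sema3c, at -0.05 and 0.09. The SD between probe sets reflects disagreement within the same arrays, which can include differences between transcript variants. It leaves out error shared by all probe sets of an array and how cultures vary.

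The upstream sequences of Sema3d, Sema3a and Nrp2, the members that were at least 2-fold lower, are printed with that of Sema3e, which was higher and neighbours Sema3d and Sema3a on chromosome 5. Each line holds the 250 bases before the annotated transcript start from RefSeq (GRCm38.p6), 5′ to 3′ on the gene's strand, with motif matches in capitals. The Sema3a start in that table lies inside the longer annotated gene.
Sema3d, chr5:12382916-12383165, plus strand: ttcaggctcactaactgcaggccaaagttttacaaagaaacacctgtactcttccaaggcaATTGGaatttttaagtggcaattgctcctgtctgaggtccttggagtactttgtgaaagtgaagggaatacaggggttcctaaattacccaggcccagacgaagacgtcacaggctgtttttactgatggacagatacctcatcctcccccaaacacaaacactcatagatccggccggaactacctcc
Sema3a, chr5:13396534-13396783, plus strand: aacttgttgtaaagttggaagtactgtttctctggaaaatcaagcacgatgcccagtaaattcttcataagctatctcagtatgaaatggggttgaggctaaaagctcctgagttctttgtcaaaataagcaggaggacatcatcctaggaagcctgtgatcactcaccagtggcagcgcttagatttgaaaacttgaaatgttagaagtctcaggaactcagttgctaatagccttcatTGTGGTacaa
Sema3e, chr5:14025026-14025275, plus strand: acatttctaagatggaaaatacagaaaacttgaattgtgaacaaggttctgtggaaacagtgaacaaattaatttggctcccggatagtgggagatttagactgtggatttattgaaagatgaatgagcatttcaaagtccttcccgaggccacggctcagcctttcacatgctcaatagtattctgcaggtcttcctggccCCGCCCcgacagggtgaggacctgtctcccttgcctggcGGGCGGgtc
Nrp2, chr1:62703067-62703316, plus strand: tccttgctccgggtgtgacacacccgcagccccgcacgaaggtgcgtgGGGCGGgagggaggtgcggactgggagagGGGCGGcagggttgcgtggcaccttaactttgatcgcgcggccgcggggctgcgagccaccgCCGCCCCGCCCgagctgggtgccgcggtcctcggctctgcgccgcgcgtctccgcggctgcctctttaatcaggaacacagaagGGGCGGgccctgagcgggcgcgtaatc
Motifs were searched on both strands. Those of the core promoter were TATAAA, known as the TATA box, the pentamer CCAAT bound by nuclear factor Y, and the GC box GGGCGG bound by Sp proteins. The others were the AP-1 motif with the letters TGANTCA, the STAT motif with the letters TTCNNNGAA, the RUNX motif with the letters TGTGGT, the cAMP response element with the letters TGACGTCA, and the kappa-B motif of NF-kB. Matches of different motifs did not overlap in the windows printed.

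These 4 windows differed in composition. The Nrp2 window was 72.4% G or C with 32 CpG dinucleotides, whereas the Sema3d, Sema3a and Sema3e windows were 46.8%, 40.8% and 48.0% with 4, 2 and 7, and the medians over 32851 promoter windows were 52.4% and 6. Nrp2 held 5 GC boxes, 2 of them sharing a base, and Sema3e held 2. A GC box was found in 32.7% of all windows. Among the 37 windows of members 27 held one, so it was not particular to Nrp2 and Sema3e. Sema3d held a CCAAT box on the opposite strand at -189 (33.8% of windows), counting from -1 as the base before the start. Sema3a held a RUNX motif at -10 (14.0% of windows). None of the 4 windows held the TATA box, AP-1, STAT, cAMP or kappa-B letters, which 12.4%, 6.75%, 7.02%, 1.55% and 7.25% of all windows did. Of the 31 members 26 had an entry, and Sema3b, Sema3f, Sema6a, Plxna1 and Plxna4 did not. A match describes the letters alone.

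Among the secreted class 3 semaphorins, 5 of 7 were measured, with log2 ratios from -1.64 to 0.63 and a median of -0.43. Sema3d, a secreted ligand known from heart and vessel development, had signals of 529 with PC-3 medium and 1644 with MDA-PCa2b medium by its brightest probe set (log2 ratio -1.64). Its second probe set gave 186 and 526 (2.82-fold lower). Sema3d had the 35th lowest ratio of the 10649 measured genes, and 0.329% of them were at or below it. Since RNA of a whole culture was measured, fewer cells of a type and less RNA per cell cannot be told apart here or below.

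Sema3a, the osteoclast-restraining ligand that signals through Nrp1 and A-type plexins, had signals of 199 with PC-3 medium and 416 with MDA-PCa2b medium by its brightest probe set. Its second probe set gave 171 and 349. The log2 ratios of -1.06 and -1.03 differed by far less than the scatter between probe sets, and its remaining probe set was below the floor on both arrays. Sema3b, a class 3 ligand known as a tumour suppressor in human lung, was lower by its brightest probe set (384 against 519, log2 ratio -0.43) and by its second (173 against 298, -0.78). Its remaining probe set was near the floor and went the other way, with 67.0 against 43.6, a bound of at least 1.18-fold higher.

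Sema3c, a ligand known to act through both neuropilins and plexin D1, had signals of 1148 with PC-3 medium and 1185 with MDA-PCa2b medium (log2 ratio -0.05). Sema3e, the plexin D1 ligand, was the only class 3 member measured on both arrays by its brightest probe set that was at least 1.5-fold higher. Its 2 measured probe sets gave 198 against 127 (log2 ratio 0.63) and 141 against 73.1 (0.94). The other 2 exceeded the floor only on the PC-3 medium array, at 114 against 47.3 (at least 2.02-fold higher) and 76.0 against 39.0 (at least 1.34-fold higher). All 4 probe sets of Sema3e were thus higher, at low signals.

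The brightest probe sets of the remaining class 3 genes were at the floor with MDA-PCa2b medium. Sema3f, the classical Nrp2 ligand, gave 197 with PC-3 medium and 21.6 with MDA-PCa2b medium by its brightest probe set, at least 3.48-fold higher. That probe set is of a kind that can match several transcripts, and the other one measured on both arrays gave 68.1 and 66.0 (log2 ratio 0.05). Its remaining probe set was below the floor on both arrays, so no direction is given for Sema3f. Sema3g, a class 3 ligand known from endothelium, gave 73.6 against 31.7, at least 1.30-fold higher.

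Sema3d, Sema3a, Sema3e and Sema3c lie in this order on chromosome 5 of the RefSeq annotation (GRCm38.p6), with 0, 3 and 15 other protein-coding genes between successive members. Their log2 ratios in that order were -1.64, -1.06, 0.63 and -0.05. Sema3d and Sema3a, with no coding gene between them, were both lower. The log2 ratio of Sema3a minus that of Sema3e, the next member along the chromosome, was -1.70.

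Of the 13 membrane semaphorins 9 were measured, with log2 ratios from -0.20 to 0.70 and a median of 0.04, and 0 were 2-fold different. Among all measured genes 1.90% were at least 2-fold higher and 1.68% lower, so a count of 0 among 9 does not set them apart. Sema4f, a transmembrane semaphorin best known in nervous tissue, had the highest ratio among the brightest probe sets measured on both arrays, with 512 with PC-3 medium against 315 with MDA-PCa2b medium (1.62-fold, log2 ratio 0.70). That probe set is of a kind that can match several transcripts. The second probe set of Sema4f gave 160 against 114 (0.49), which is below 1.5-fold. Sema6d, a ligand of Plxna1, gave 372 against 248. Its log2 ratio of 0.58 lay just under the 1.5-fold line, and its 3 other probe sets were below the floor.

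Sema4c, a ligand of Plxnb2, gave 387 with PC-3 medium against 277 with MDA-PCa2b medium (1.40-fold higher). Sema4b, another transmembrane class 4 member, gave 93.2 against 66.9 (1.39-fold higher), close to the floor. These ratios stood at 2.0 times the SD between probe sets, and 7.39% and 7.44% of all measured genes had ratios as high or higher.

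Sema4d, the Plxnb1 ligand, gave 358 with PC-3 medium and 384 with MDA-PCa2b medium, and Sema7a, a membrane-anchored ligand of Plxnc1 and beta-1 integrins, 328 and 331. Sema5a, a transmembrane ligand with thrombospondin repeats, gave 678 and 710 by its brightest probe set, with log2 ratios of -0.07, -0.07 and -0.36 by its 3 measured probe sets. Sema6a, a ligand of Plxna2 and Plxna4, gave 75.9 and 87.3, and Sema6c, a close relative, 85.9 and 83.8. For these 5 genes the brightest probe sets differed by no more than the scatter between probe sets. Sema4a, Sema4g, Sema5b and Sema6b were below the floor on both arrays, with highest signals of 35.6, 40.0, 19.2 and 25.8, and have no ratio.

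**Figure D2:**
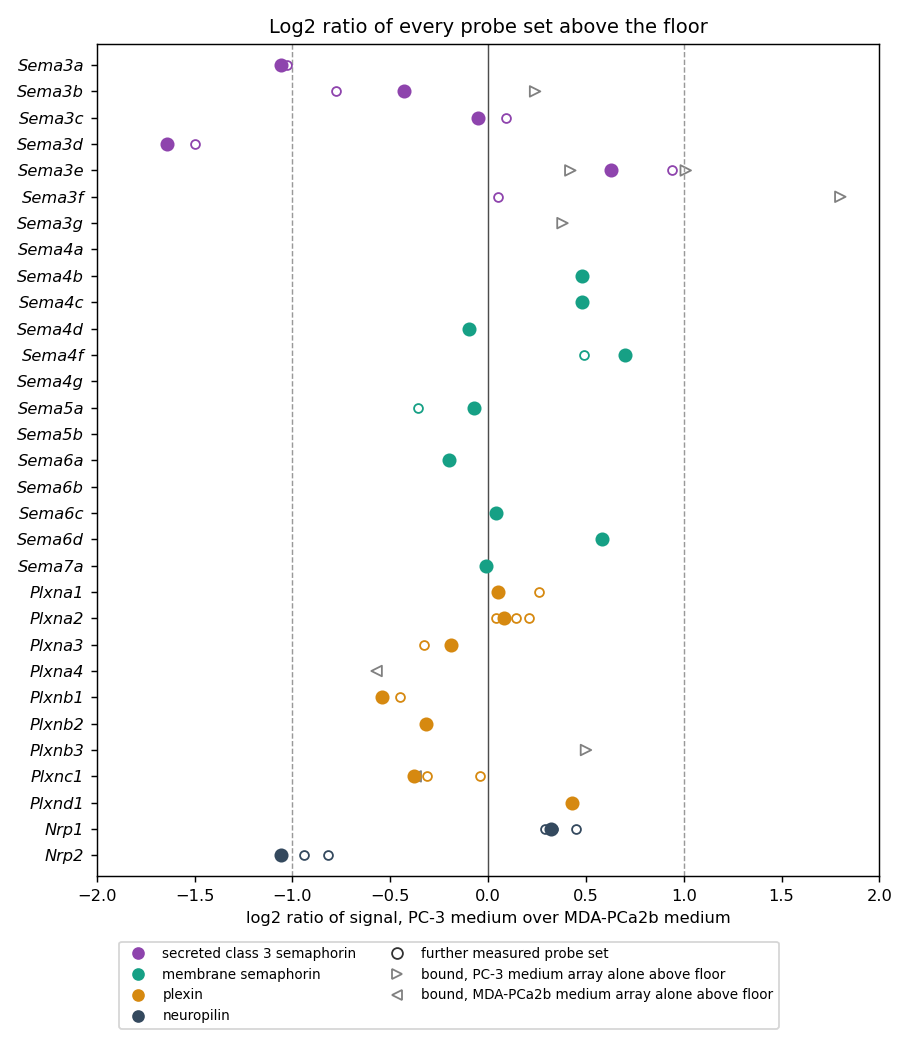
Log2 ratio of signal, PC-3 medium over MDA-PCa2b medium, for every probe set above the floor on at least 1 array; filled points are the brightest probe set of a gene, open points further measured probe sets, and triangles bounds. Dashed lines mark 2-fold. The probe sets of Sema3d, Sema3a and Nrp2 lie together at the left, those of Nrp1 together right of 0, and those of Sema3f far apart.

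The neuropilin genes differed from each other in direction by every probe set. Nrp2, the co-receptor for Sema3f and for VEGF-C in lymphatic vessels, had signals of 2931 with PC-3 medium and 6103 with MDA-PCa2b medium by its brightest probe set (2.08-fold lower). Its other 3 probe sets gave 1749 against 3646, 1388 against 2656 and 210 against 369, so the 4 log2 ratios lay between -1.06 and -0.82, and their mean of -0.97 was just under 2-fold. Nrp2 ranked 149th from the lowest ratio, and 1.40% of measured genes were at or below it.

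Nrp1, the co-receptor for Sema3a and for VEGF-A, had signals of 1720 with PC-3 medium and 1380 with MDA-PCa2b medium (1.25-fold higher). Its other 3 probe sets gave 1056 against 866, 661 against 485 and 359 against 286, with log2 ratios between 0.29 and 0.45 over all 4. The ratios of the 4 Nrp2 probe sets and the 4 Nrp1 probe sets did not overlap, and the ratio of Nrp2 minus that of Nrp1 was -1.38 log2 units by the brightest probe sets.

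Of the 9 plexin genes 7 were measured, with log2 ratios from -0.54 to 0.43 and a median of -0.19, and 0 reached 1.5-fold. Among all measured genes 5.18% reached it upward and 6.23% downward, so a count of 0 among 7 does not set plexins apart. The A-type plexins, which signal for neuropilin-bound class 3 ligands, were nearly level. Plxna1 gave 633 with PC-3 medium and 613 with MDA-PCa2b medium (log2 ratio 0.05), and Plxna2 gave 1465 and 1385, with log2 ratios of 0.04 to 0.21 over 4 probe sets. Plxna3, a partner of Nrp2 in Sema3f signalling, gave 196 against 223, with log2 ratios of -0.19 and -0.33. Plxna4 exceeded the floor only on the MDA-PCa2b medium array, at 13.5 with PC-3 medium against 85.6, at least 1.48-fold lower. Its other probe set was below the floor on both arrays, at 22.3 with PC-3 medium against 9.12, so the bound rests on 1 probe set.

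The measured B-type plexins, which bind class 4 ligands, were both lower. Plxnb1, the Sema4d receptor, gave 174 with PC-3 medium against 253 with MDA-PCa2b medium (1.46-fold lower), and 114 against 155 by its second probe set (1.37-fold lower). Plxnb2, the Sema4c receptor, gave 2198 against 2751 by its sole probe set (1.25-fold lower). Of the measured genes 7.29% had ratios at or below that of Plxnb1. Plxnb3 was at the floor with MDA-PCa2b medium, at 80.2 against 36.7 (at least 1.41-fold higher), by a probe set that can match several transcripts.

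Plxnc1, the Sema7a receptor, gave 300 with PC-3 medium against 389 with MDA-PCa2b medium (1.30-fold lower), with log2 ratios of -0.31 and -0.04 by its 2 further measured probe sets. Plxnd1, the Sema3e receptor, gave 228 against 169 by its sole probe set (1.35-fold higher), and 8.88% of the measured genes had ratios as high or higher. Sema3e and Plxnd1 were both higher, and Sema3a and its neuropilin Nrp1 lay on opposite sides of 0.

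**Figure D3:**
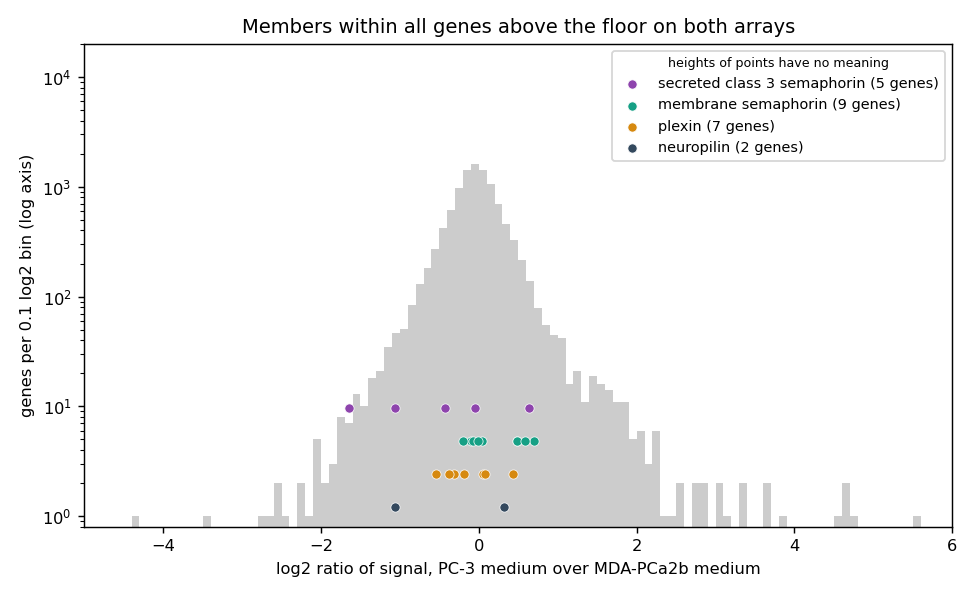
Grey bars count all 10649 genes above the floor on both arrays by log2 ratio, PC-3 medium over MDA-PCa2b medium, on a log axis; coloured points are the 23 measured members by family, and their height has no meaning. Sema3d at -1.64 and Sema3a and Nrp2 at -1.06 lie in the lower tail, and the other 20 lie between -0.54 and 0.70.

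Partner genes of the pathway with a probe set numbered 66, and 56 of them were measured. The 2-fold line was reached by 0 of the 56 in either direction. Among all measured genes, 1.90% reached it upward with PC-3 medium and 1.68% downward. With shares this small, a count of 0 among 56 does not set the partner genes apart. At 1.5-fold 5 were higher (8.93%, against 5.18% of all measured genes) and 4 lower (7.14%, against 6.23%), and their median log2 ratio was 0.06. The higher genes were Ptk7, a pseudokinase receptor of planar cell polarity (205 with PC-3 medium against 120 with MDA-PCa2b medium), Gpc3, a cell-surface heparan sulphate proteoglycan (332 against 194), and Vegfa, the neuropilin-binding growth factor (775 against 487). Pcsk5, a furin-like protease of the kind that cleaves class 3 semaphorins, gave 1247 against 830, and Mical2, an actin-oxidising enzyme of the family that acts below plexins, 299 against 199. The second probe set of Mical2 had a log2 ratio of 0.13, against 0.59 by the brightest.

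The lower partner genes were led by Myl9, a myosin light chain that drives contraction, with 4038 with PC-3 medium against 7583 with MDA-PCa2b medium (1.88-fold lower). Pcsk6, another furin-like protease, gave 991 against 1576 (1.59-fold lower). Farp2, the exchange factor that in the mouse links Sema3a and Plxna1 to Rac, gave 640 against 999 (1.56-fold lower), with log2 ratios of -0.64 and -0.67 by its 2 probe sets. Vegfc, the Nrp2-binding lymphatic growth factor, gave 109 against 170, but its other 2 probe sets had log2 ratios of -0.11.

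By group, 2 of 9 measured co-receptor genes were at least 1.5-fold higher and 0 lower (median log2 ratio 0.17), and of 4 VEGF family genes 1 was higher and 1 lower (0.15). Of 7 processing proteases 1 was higher and 1 lower (median 0.18). Of 18 genes of GTPases and their regulators 0 were higher and 1 lower (0.07), and of 18 cytoskeletal effectors 1 was higher and 1 lower (-0.14). Among all measured genes 5.18% were at least 1.5-fold higher and 6.23% lower. With groups this small, these counts do not set any group apart. Rnd1, a small GTPase that binds plexins, is named after inspection of its values: it exceeded the floor only on the PC-3 medium array, at 173 against 27.1 (at least 3.05-fold higher).

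**Figure D4:**
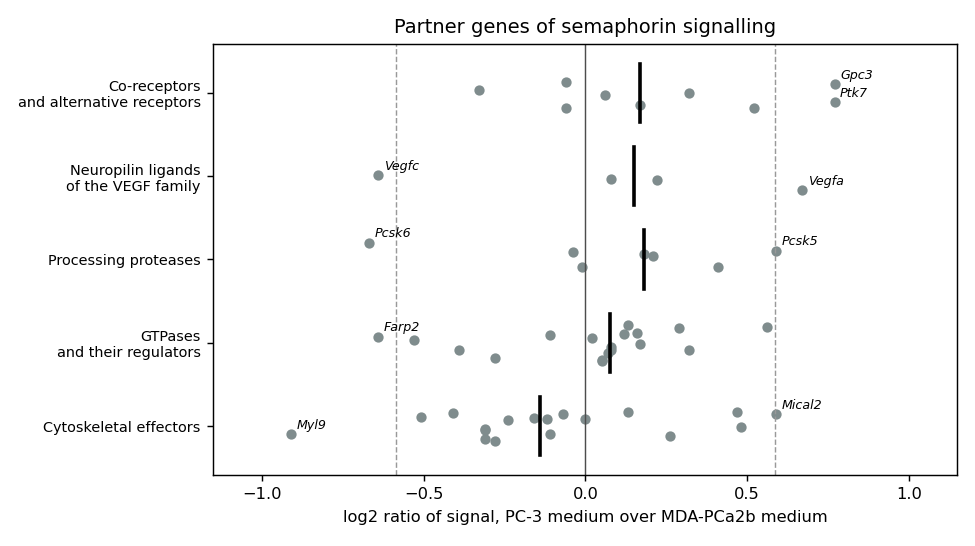
Log2 ratio of signal, PC-3 medium over MDA-PCa2b medium, of the 56 measured partner genes in 5 groups; each point is a gene, black bars are group medians, and dashed lines mark 1.5-fold. All 56 points lie within 2-fold, from Myl9 at -0.91 to Gpc3 and Ptk7 at 0.77.

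The cultures carried osteoblast markers: all 9 marker genes with a probe set were measured, including Col1a1, Ibsp, Alpl and Sp7. By the brightest probe sets all 9 had log2 ratios below 0, with a median of -0.12. Of all 10649 measured genes 5957 were also below 0. Alpl was at -0.41 and the parathyroid hormone receptor gene Pth1r at -0.35, whereas Col1a1, Col1a2 and Sparc were nearly level (-0.00, -0.02 and -0.02). The 2 other probe sets of Sparc were at 0.03 and 0.33, and those of Col1a1, Col1a2 and Ibsp lay between -0.59 and -0.08. The summed signal of the 9 genes, most of it from Col1a1, Col1a2, Sparc and Ibsp, was 90873 with PC-3 medium and 96657 with MDA-PCa2b medium. Dmp1, a marker of late osteoblasts and osteocytes, was 4.14-fold lower (426 against 1765) and Sp7, the osteoblast transcription factor, 1.60-fold lower, in the same direction as Sema3d, Sema3a and Nrp2. Of 9 macrophage and osteoclast markers 7 were measured as well, namely Cd68, Csf1r, Ptprc, Itgam, Lyz2, Acp5 and Ctsk. Among the osteoclast markers, Ctsk gave 7336 with PC-3 medium and 7420 with MDA-PCa2b medium and Acp5 was also measured, whereas Calcr and Oscar were below the floor. The summed signal of the 9 genes was 20767 with PC-3 medium and 20651 with MDA-PCa2b medium, and the measured ones had a median log2 ratio of 0.03. Within that list the lysosomal gene Cd68 gave 851 against 566 and Acp5, the tartrate-resistant phosphatase, 306 against 225, both higher, whereas Csf1r had a log2 ratio of -0.19 and Ptprc of -0.23. The part of these cells, and of osteoblast markers such as Dmp1 and Sp7, in the ratios of the semaphorin system was not tested. Of 7 endothelial markers 0 were above the floor on either array. Of 8 markers of neurons and glia 1 was measured, S100b (233 against 396). Sox10 exceeded the floor only on the PC-3 medium array, and Tubb3 and Rbfox3 only on the MDA-PCa2b medium array. Of 5 lymphocyte markers 0 were measured, and Cd8a exceeded the floor only on the MDA-PCa2b medium array.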

How the data were processed

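The authors deposited linear intensity values, 1 signal per probe set, for which the submitters' processing notes name MAS5 and GCOS 1.4. Scaling target, background settings and detection calls are not given in the sources used here; both arrays had the same trimmed mean of 298.8 after the lowest and highest 2% of signals and the controls were left out. Groups follow the samples' source descriptions, since the PC-3 title mixes in part of the other line's name. Of 45101 probe sets 64 controls were dropped. In the platform annotation 34958 probe sets had 1 gene, 932 several and 9211 were not listed; those with several were not used. All 31 members were found under their listed symbols.

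Signals at or below the 50th percentile of their array were set to it and log2 was taken; the ratio is PC-3 medium minus MDA-PCa2b medium. Each gene was represented by its brightest probe set over both arrays. A ratio with 1 array at the floor is a bound. All 31 members are named, as are measured partner genes at least 1.5-fold different, up to the 5 largest each way, and up to 2 each way in other guidance families. Members and lists were chosen with earlier results of these data known. Alternatives were other floors, log2(signal + 16), quantile normalisation, centring, averaged probe sets and leaving out probe sets with several possible targets. No test was run, since there was 1 array per medium; the number of arrays limits the precision. The calculations were tested on simulated data (Python 3.11.15, pandas 2.3.3, numpy 2.4.6).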

Additional observations from a re-analysis of the deposited data

How the results depend on the processing

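With 1 array per medium no replicate could be left out, and no paired analysis was possible because each group holds 1 sample. The log2 ratios of the 23 measured members moved by less than the SD between probe sets under every alternative that could measure them (150 of 150 recomputed values). Many of these values could hardly move, so their number is no measure of stability. Another floor leaves ratios above it unchanged, and centring shifts all genes alike. Averaging or leaving out probe sets changes only genes with several probe sets. Sema3d stayed between -1.64 and -1.57, Sema3a between -1.06 and -1.01 and Nrp2 between -1.06 and -0.97. The number of members at least 2-fold lower was 3 as reported but 2 with probe sets averaged, where Nrp2 was at -0.97, and 2 with the 75th percentile as floor, where Sema3a was at the floor with PC-3 medium; it was 4 with log2(signal + 16), where Plxna4 was at -1.78. The number of members at least 2-fold higher was 0 as reported, beside 1.90% of all genes. It was 3 with the 25th percentile as floor (Sema3f, Sema3g and Plxnb3, of 28 measured, beside 3.13%). With log2(signal + 16) it was 1 (Sema3f, of 31, beside 2.90%). The number at least 1.5-fold higher was 2 of 23 as reported (5.18% of all genes). It was 3 of 23 with quantile normalisation (5.21%) and with centring (6.02%), where Sema6d was at 0.59 and 0.62. It was 5 of 28 with the 25th percentile as floor (8.37%), 1 of 12 with the 75th (3.73%) and 5 of 31 with log2(signal + 16) (8.76%). Without probe sets that can match several transcripts it was 1 of 24 (5.39%), where Sema4f was at 0.49. The number at least 1.5-fold lower was 3 of 23 as reported (6.23% of all genes) and 5 of 31 with log2(signal + 16) (9.01%). It was 4 of 24 with probe sets averaged (5.55%) and 2 of 12 with the 75th percentile as floor (3.44%). Partner genes at least 1.5-fold higher numbered 5 of 56 as reported (5.18% of all genes). They numbered 3 of 56 with quantile normalisation (5.21%) and 2 of 37 with the 75th percentile as floor (3.73%). Those lower numbered 4 of 56 as reported (6.23%). With the 25th percentile as floor 7 of 62 were higher (8.37%) and 7 of 62 lower (8.91%). The cause of these shifts was not tested. Bounds depended on the floor: the bound of Plxna4 was -2.56 on the log2 scale with the 25th percentile as floor.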

Other observations

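Other guidance families were measured beside the semaphorin system. Of 43 ephrin, Eph, Slit, Robo, netrin and netrin receptor genes with a probe set, 24 were measured; 2 (8.33%) were at least 2-fold higher with PC-3 medium, against 1.90% of all genes, and 1 (4.17%) at least 2-fold lower, against 1.68%. Their median log2 ratio was 0.02. Ntn1, the secreted guidance protein netrin-1, had signals of 521 with PC-3 medium and 145 with MDA-PCa2b medium (3.59-fold higher), by its sole measured probe set. Efna1, a ligand of EphA receptors, gave 542 against 270 (2.01-fold higher), with a log2 ratio of 0.92 by its second probe set.

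The lower genes were led by Eph receptors. Epha4 gave 163 with PC-3 medium against 334 with MDA-PCa2b medium (2.05-fold lower), and its further probe sets gave log2 ratios of -0.72 and -0.55. Epha3 gave 1593 against 2962 (1.86-fold lower), with -0.70 to -0.37 by its others. With 1 array per medium, no test was possible.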
